A study of Mus musculus with 12 samples.

Results

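The 9 genes described here encode cadherins, the calcium-dependent adhesion receptors of epithelial junctions and brush borders, and catenins, the cytoplasmic proteins that bind classical cadherin tails. They were chosen by name: the rows of the deposited count table whose Ensembl identifiers GENCODE M21 assigns to Cdh1, Cdh2, Cdh17, Cdhr2, Cdhr5, Ctnna1, Ctnna3, Ctnnb1 and Ctnnd1. All 9 were present among the 43432 genes of the table. All 9 also passed the filter on low counts, Ctnna3 through the IL-25+ libraries of both tissues and Cdh2 only through the gallbladder IL-25+ libraries in which it was high.

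RNA was sequenced from epithelial cells of Flare25 mice, in which transcription of the cytokine gene Il25 is reported by a red fluorescent protein. Cells of the proximal small intestine (SI) and of the gallbladder (GB) were released with EDTA and DTT, gated as live, single and EpCAM+, and sorted into an IL-25+ and an IL-25- fraction, so all 12 libraries carry the reporter and the EpCAM gate. The 4 groups of 3 libraries are named SI-pos, SI-neg, GB-pos and GB-neg. The labels give all 12 libraries as homeostasis, yet list HDM AF647, given to the mice 1 day before collection, for the 6 gallbladder libraries, so tissue and this treatment cannot be told apart in any comparison between tissues. Age and sex are not given in the sources used here. The labels do not say whether replicates were separate mice, and p-values therefore measure only the spread between libraries, which may be technical.

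Classical cadherins such as E-cadherin join neighbouring epithelial cells by binding their like on the next cell, and their tails hold β-catenin and p120-catenin. β-Catenin in turn binds α-catenin, which links the junction to actin, and free β-catenin also acts in the nucleus as the coactivator of Wnt signalling. The protocadherin-type Cdhr2 and Cdhr5 work elsewhere in the cell: they pair with each other between the tips of microvilli and help pack the brush border. The IL-25+ cells of gut epithelium are mainly tuft cells, chemosensory cells with a tuft of long, thick microvilli, and tuft cells are also found in the biliary tree.

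Library totals ran from 23703449 to 64736650 counts, and mitochondrially encoded transcripts took 12.1 to 17.2% of them in SI-pos, 26.6 to 34.9% in SI-neg, 7.13 to 8.83% in GB-pos and 11.2 to 25.001% in GB-neg. This share was thus lower in the IL-25+ libraries of each tissue, and its part in the gate differences was not tested beyond leaving those genes out. Of 18 tuft identity genes, 18 were higher in IL-25+ cells of the small intestine and 17 in those of the gallbladder, with summed levels of 57861 to 70640 CPM in SI-pos, 523 to 856 in SI-neg, 31754 to 35884 in GB-pos and 5579 to 8807 in GB-neg. The genes of the list were uneven in GB-neg: in GB-neg 1, Cd24a stood at 110% of its GB-pos mean and Gnat3 at 28.04%, and the others at 0.333 to 3.51%. One library stood apart: in GB-neg 1, the median of 15 enterocyte genes was 5.48% of the SI-neg 3 level, against at most 0.21% in any other gallbladder library. Cdh17, Cdhr2 and Cdhr5, which are abundant in intestine, stood in GB-neg 1 at 5.70, 5.16 and 9.53% of their SI-neg 3 level. Results that rest on GB-neg 1 are given below with and without it, and the part of intestinal transcripts in them was not tested otherwise.

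Levels are CPM, the counts scaled to library sizes with TMM factors, as mean ± SD with n = 3 libraries, and levels of different genes are compared as CPM per kb of exon. Differences are log2 fold changes ± SE from an edgeR quasi-likelihood fit over the 12 libraries, with p-values adjusted by Benjamini-Hochberg over 16636 genes. A gene is said to have passed, risen or fallen where that adjusted p was under 0.05. In bulk libraries, fewer cells that express a gene and less RNA of it per cell cannot be told apart.

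In the small intestine, 4 of the 9 genes were higher in IL-25+ than in IL-25- cells and none was lower, where 27.2% of all tested genes passed in either direction, 14.5% higher and 12.8% lower. The 4 were Cdhr5, Ctnna1, Ctnna3 and Ctnnd1. In the gallbladder 7 of 9 passed, against 26.8% of all genes (12.4% higher, 14.4% lower): Cdh2, Cdhr2, Cdhr5 and Ctnna3 were higher in IL-25+ cells and Cdh17, Ctnna1 and Ctnnb1 were lower. Cdh2 passed the filter on low counts only through GB-pos, so its call is a description, and 6 of the other 8 genes passed. Ctnna3 passed that filter only through IL-25+ libraries, those of both tissues, so its calls between gates carry that limit. Cdhr5 and Ctnna3 were thus called higher in both tissues, while Ctnna1 was called in opposite directions. The median log2 fold change of the 9 genes was 0.76 in the small intestine and -0.45 in the gallbladder, beside medians of -0.07 and -0.15 over all genes tested. The ranges of IL-25+ and IL-25- libraries did not overlap for 6 of the 9 genes in the small intestine and for 8 in the gallbladder, beside 49.3 and 41.3% of all genes tested. The 8 include Cdh2, for which this too is a description.

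**Figure D1:**
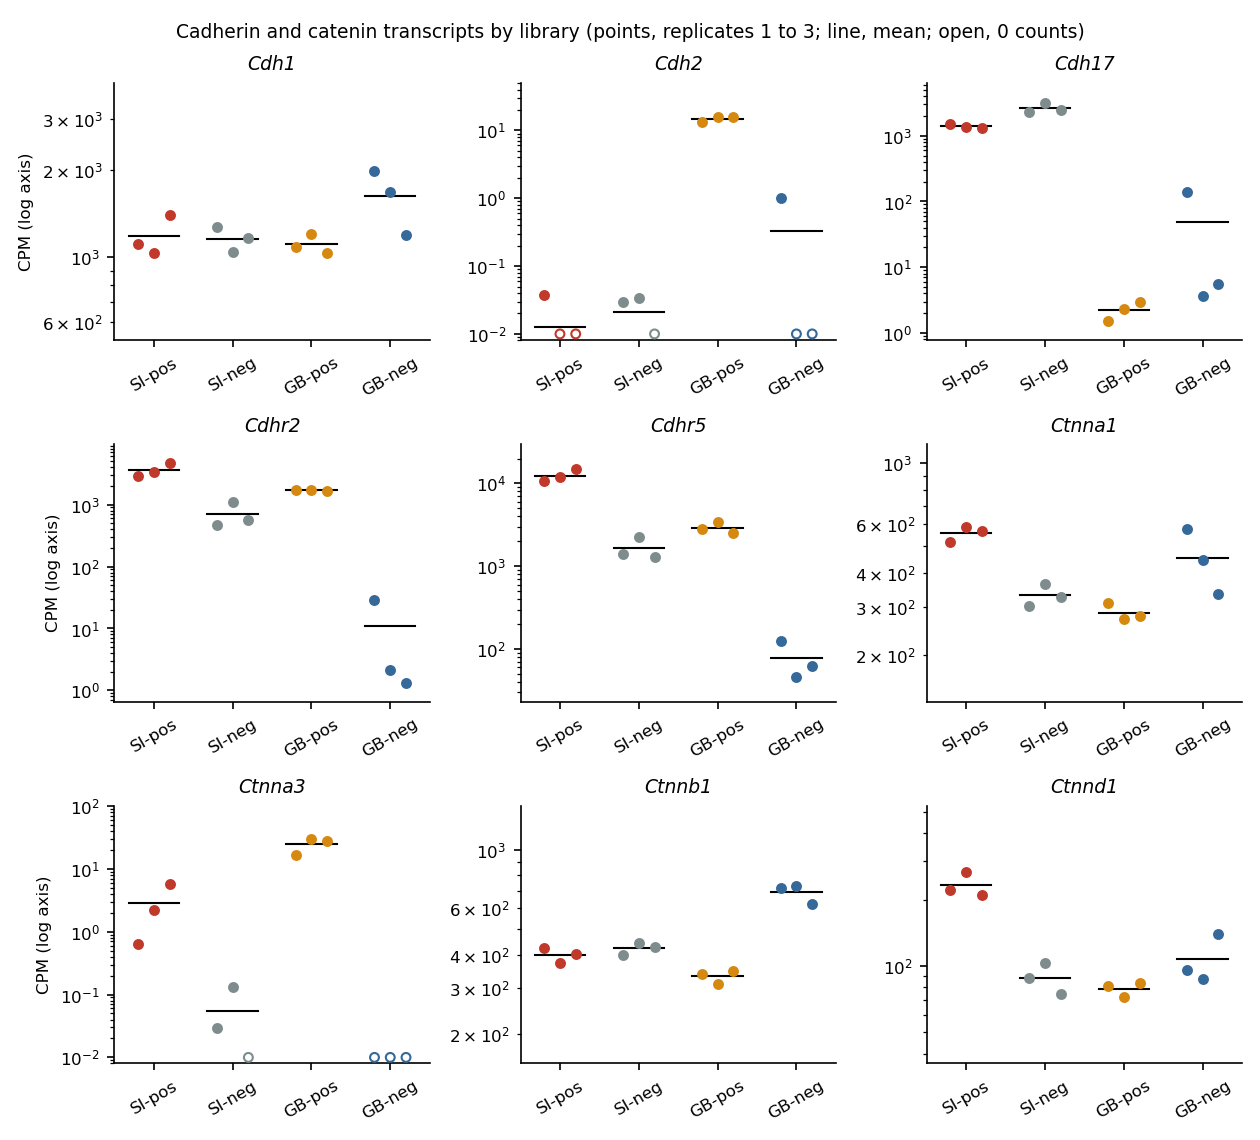
Level of each of the 9 genes in each library (CPM, log axis); points are replicates 1 to 3 from left to right, the line is the group mean and open circles on the bottom mark 0 counts. Cdh2 and Ctnna3 are highest in GB-pos, Cdhr2 and Cdhr5 are higher in the IL-25+ group of each tissue, and GB-neg 1 lies above the other GB-neg libraries for Cdh2, Cdh17, Cdhr2 and Cdhr5.

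Cdh1 (ENSMUSG00000000303, GRCm38 chromosome 8, 106603351 to 106670246) encodes E-cadherin, the main adherens junction receptor of epithelium. It had 1115, 1035 and 1403 CPM in SI-pos 1 to 3 and 1271, 1046 and 1163 CPM in SI-neg 1 to 3. The gallbladder libraries held 1086, 1206 and 1036 CPM in GB-pos and 1989, 1676 and 1194 CPM in GB-neg. The ranges of the 2 gates overlapped in each tissue, and the highest values were those of GB-neg 1 and 2. No comparison passed for Cdh1: its log2 fold change was 0.03 ± 0.20 in the small intestine (adjusted p = 0.933) and -0.55 ± 0.20 in the gallbladder (adjusted p = 0.0589). The small intestine value is too small to carry a direction, since it was -0.091 with RLE size factors. In the gallbladder it was -0.73 without GB-neg 3 (adjusted p = 0.0106) and -0.39 without GB-neg 1 (adjusted p = 0.204), and it passed in 4 of 22 alternatives.

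Cdh2 (ENSMUSG00000024304, chromosome 18, 16588877 to 16809246) encodes N-cadherin, the classical cadherin best known from neurons, mesenchyme and heart muscle. Its counts were 465, 422 and 584 in the GB-pos libraries and 71, 0 and 0 in the GB-neg libraries. The small intestine libraries held 1, 0 and 0 counts in the IL-25+ group and 1, 1 and 0 in the other. Reads of Cdh2 were therefore nearly all in IL-25+ gallbladder cells, at 15.0 ± 1.3 CPM, and no other library passed 1 CPM. Between the gallbladder gates the log2 fold change was 5.41 ± 1.49, given as a description since the gene entered the test through GB-pos. All 71 GB-neg reads came from GB-neg 1, and without that library the change was 11.87, with Cdh2 at least 322-fold higher in GB-pos by a floor of 3 counts over the other 2 GB-neg libraries. Both small intestine groups lay at or under 3 counts, so no fold is given between them.

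Cdh2 was 9.81 ± 1.97 higher on the log2 scale in gallbladder than in small intestine among IL-25+ cells, a ratio of pooled counts of 1136 with a 95% counting interval of 204 to 44906, which covers counting error only. In IL-25- cells the tissue difference did not pass (3.90, adjusted p = 0.102) and was -2.56 without GB-neg 1. Per kb, Cdh2 made up 0.762% ± 0.081 of the summed Cdh1 and Cdh2 level in GB-pos, with Cdh1 in the same cells at 243 ± 19.1 CPM per kb. GB-neg 1 held Cdh2 at 6.66% of its GB-pos mean, while the 18 tuft genes stood there at a median of 1.12% and Ctnna3 at 0. Il25, the gene the gate reports, had 48 counts in GB-neg 1, beside 1 and 0 in the other GB-neg libraries and 220, 324 and 257 in GB-pos 1 to 3. Some other cell types, among them types known for N-cadherin, were followed by their markers. The 9 stromal markers summed to 0.297 to 3.66 CPM in GB-pos, with Col1a2, Lum, Pdgfra and Des at 0 counts, and to 0.532 to 3.87 CPM in GB-neg. The 9 enteric neuron and glia markers summed to 11.9 to 29.6 CPM in GB-pos and to 101 to 124.6 CPM in GB-neg. Of the 6 neuron and glia markers that could be tested, 2 were lower in GB-pos than in GB-neg and 4 did not pass, with a median log2 fold change of 0.81; 2 were higher and 1 lower in GB-pos than in SI-pos, with a median of 4.88. The 7 endothelial markers summed to 240 to 358 CPM in GB-pos and to 0.130 to 0.968 CPM in GB-neg. Nearly all of the former was Tek, a receptor tyrosine kinase, at 307 ± 60.8 CPM, and the endothelial genes Cdh5, Kdr, Cldn5 and Emcn had 0 counts in GB-pos. The part of other cell types in the Cdh2 level was not tested further.

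The genes whose pattern over the 12 libraries was most like that of Cdh2 were Nptx2, Tanc2 and Cdh4, among tested genes with a mean of at least 10 CPM. Likeness was measured as the root mean square difference of centred log2(CPM + 0.5), which was 0.578, 0.657 and 0.711. Nptx2 encodes a neuronal pentraxin, Tanc2 a synaptic scaffold protein and Cdh4 another classical cadherin, R-cadherin. Cdh4 stood at 69.2 ± 5.57 CPM in GB-pos and 3.98 ± 1.27 CPM in GB-neg.

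Cdh17 (ENSMUSG00000028217, chromosome 4, 11758147 to 11817895) encodes LI-cadherin, an intestinal cadherin with a short tail that does not bind catenins. It had 1532, 1340 and 1296 CPM in SI-pos 1 to 3 and 2279, 3165 and 2420 CPM in SI-neg 1 to 3. It had 1.54, 2.34 and 2.93 CPM in GB-pos 1 to 3 and 138, 3.66 and 5.55 CPM in GB-neg 1 to 3. The gates did not overlap in either tissue, with the IL-25+ libraries lower, and GB-neg 1 was far above the other gallbladder libraries. In the small intestine the log2 fold change of -0.92 ± 1.08 did not pass (adjusted p = 0.572). The same fold without GB-neg 1, -0.92 ± 0.24, did (adjusted p = 0.0124), as did a fit of the small intestine libraries alone (adjusted p = 0.00563). In the gallbladder the change was -4.43 ± 1.25 (adjusted p = 0.0271) with GB-neg 1 and -1.04 ± 0.28 (adjusted p = 0.0169) without it. That call did not hold without any one of the 3 GB-pos libraries (adjusted p of 0.0976, 0.0812 and 0.075), with no filter on low counts (0.0633) or with limma-voom (0.368). It was also lost with a replicate block (0.119) and with that block nested in tissue (0.267).

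Between tissues Cdh17 was lower in the gallbladder in IL-25+ cells (log2 difference -9.25 ± 1.53, adjusted p = 0.00228). In IL-25- cells the difference was -5.74 ± 1.31 (adjusted p = 0.0115), or -9.10 without GB-neg 1; fitted on those groups alone the adjusted p was 0.0615. The most similar profiles were those of Rbp2, Apoa4 and Fabp2 (0.439, 0.469 and 0.472), which encode a retinol-binding protein, an apolipoprotein and a fatty acid-binding protein of enterocytes.

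Cdhr2 and Cdhr5 encode the protocadherin-type receptors of microvillus tips, and were the members with the highest levels per kb in IL-25+ cells of both tissues. The 250 bases before their RefSeq start sites (GRCm38.p6) are shown because IL-25+ libraries lay above IL-25- libraries for both genes in each tissue. For Cdhr2 in the small intestine that difference did not pass. Sequences are written 5′ to 3′ on the gene's strand, at chr13:54701213-54701462 (plus) for Cdhr2 and chr7:141276787-141277036 (minus) for Cdhr5. Capitals mark a match to a searched motif.

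Cdhr2: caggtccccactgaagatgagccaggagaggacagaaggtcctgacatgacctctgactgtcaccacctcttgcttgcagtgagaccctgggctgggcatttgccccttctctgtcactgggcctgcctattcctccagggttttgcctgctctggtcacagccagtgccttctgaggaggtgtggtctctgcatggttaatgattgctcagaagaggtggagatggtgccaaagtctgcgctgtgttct
Cdhr5: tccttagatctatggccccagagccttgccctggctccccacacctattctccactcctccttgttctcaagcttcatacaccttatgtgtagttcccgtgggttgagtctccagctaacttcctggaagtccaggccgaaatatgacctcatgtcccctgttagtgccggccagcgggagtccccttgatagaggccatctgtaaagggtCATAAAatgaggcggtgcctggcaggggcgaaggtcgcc

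The motifs were searched on both strands: an octamer ATGCAAAT as bound by POU factors, TTTATG as bound by CDX factors, CAAAGTCCA for HNF4, CTTTGAA for TCF/LEF, the E-box CACCTG and the palindromic HNF1 site. Cdhr5 held 1 CDX-type match, on the strand opposite to the gene at bases -39 to -34 from the start site, and Cdhr2 held none of the 6. A CDX-type match was present in 10.8% of all 32851 promoter windows of this length, so such a match is common. The shares were 17.2% for the E-box, 4.46% for TCF/LEF, 1.6% for the octamer, 0.38% for HNF4 and 0.0091% for HNF1. Only exact matches were searched, so the absence of the rarer motifs says little about looser sites. Promoter entries were found for 5 of the 9 genes, at 9 start sites, and a CDX-type match also lay before 1 start of Ctnnd1 and 1 of Ctnna3.

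Cdhr2 (ENSMUSG00000034918, chromosome 13, 54701461 to 54736662) had 2947, 3330 and 4686 CPM in SI-pos 1 to 3 and 469, 1101 and 569 CPM in SI-neg 1 to 3. It had 1755, 1724 and 1643 CPM in GB-pos 1 to 3 and 29.4, 2.13 and 1.30 CPM in GB-neg 1 to 3. IL-25+ libraries lay above IL-25- libraries in both tissues without overlap. The gallbladder difference was 7.28 ± 1.21 (adjusted p = 0.00168), and 9.93 without GB-neg 1. The small intestine difference of 2.36 ± 0.97 did not pass (adjusted p = 0.1). Without GB-neg 1 it was 2.35 ± 0.31 (adjusted p = 0.000111), and it passed in 6 of 22 alternatives. Between tissues Cdhr2 was lower in GB-neg than in SI-neg (-6.02 ± 1.14, adjusted p = 0.00428, and -8.65 without GB-neg 1). Among IL-25+ cells the tissue difference of -1.10 did not pass (adjusted p = 0.438), but did without GB-neg 1 (-1.07, adjusted p = 0.0212).

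Cdhr5 (ENSMUSG00000025497, chromosome 7, 141269083 to 141276786) had the highest level per kb of the 9 genes in SI-pos and GB-pos. It had 10611, 12015 and 14765 CPM in SI-pos 1 to 3 and 1410, 2259 and 1293 CPM in SI-neg 1 to 3. It had 2850, 3417 and 2497 CPM in GB-pos 1 to 3 and 123, 45.8 and 62.0 CPM in GB-neg 1 to 3. The 4 groups did not overlap, and ran from SI-pos through GB-pos and SI-neg down to GB-neg. The gate difference was 2.91 ± 0.35 in the small intestine (adjusted p = 5.22e-05) and 5.24 ± 0.39 in the gallbladder (adjusted p = 1.08e-06, and 5.74 without GB-neg 1). Both calls held in all 22 alternatives. The gallbladder level was lower in both gates, by -2.09 ± 0.34 in IL-25+ (adjusted p = 0.000713) and -4.42 ± 0.38 in IL-25- cells (adjusted p = 6.75e-06). The 3 most similar profiles were Arhgap31, Trim40 and the GTPase gene Gimap1 (0.359, 0.387 and 0.400).

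The proteins that hold Cdhr2 and Cdhr5 in the microvillus were read from a list of 8 genes. Ush1c (harmonin), Anks4b and the myosin Myo7b form the core scaffold with the calmodulin-like Calml4, and Slc9a3r1, Ezr, Eps8 and Myo1a are linkers and actin-binding proteins of the same structure. In the gallbladder 5 of the 8 rose, 2 fell and 1 did not pass, with a median log2 fold change of 1.13. In the small intestine 1 rose, 2 fell and 5 did not pass, with a median of 0.03. Over all genes tested, 12.4% rose and 14.4% fell in the gallbladder, and 14.5% rose and 12.8% fell in the small intestine. Calml4 rose in both tissues, from 127 ± 15.6 to 403 ± 27.2 CPM in the small intestine (1.66 ± 0.39, adjusted p = 0.0078) and from 6.97 ± 5.33 to 120 ± 27.2 CPM in the gallbladder (4.09 ± 0.44, adjusted p = 2.35e-05, and 4.92 without GB-neg 1). The actin-capping and bundling gene Eps8 fell in both, by -1.94 ± 0.25 and -1.95 ± 0.25 (adjusted p = 9.19e-05 and 8.89e-05), opposite to Calml4. Ezr, the membrane-actin linker ezrin, fell by -0.83 ± 0.24 in the small intestine, a call lost in 4 of 22 alternatives, and by -1.89 ± 0.25 in the gallbladder.

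Anks4b rose in the gallbladder (2.37 ± 0.32, adjusted p = 0.000147, beside 0.20 ± 0.31 with no call in the small intestine), and the tissues differed by 2.17 ± 0.44 (adjusted p = 0.00756). Myo1a gave 1.08 ± 0.19 in the gallbladder (adjusted p = 0.000859) and -0.38 ± 0.18 in the small intestine (adjusted p = 0.153), a difference of 1.46 ± 0.26 (adjusted p = 0.00368). Myo7b rose by 3.57 ± 0.96 in the gallbladder (adjusted p = 0.0213), and by 6.14 without GB-neg 1, where it had 23.3 CPM. Ush1c rose there by 1.19 ± 0.41 (adjusted p = 0.0493), a call that 12 of 22 alternatives did not make. In IL-25- gallbladder cells, Cdhr2 and Myo7b were as low as 1.30 and 1.04 CPM, whereas Ezr and Eps8 stood at 560 ± 99.6 and 816 ± 224 CPM.

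**Figure D2:**
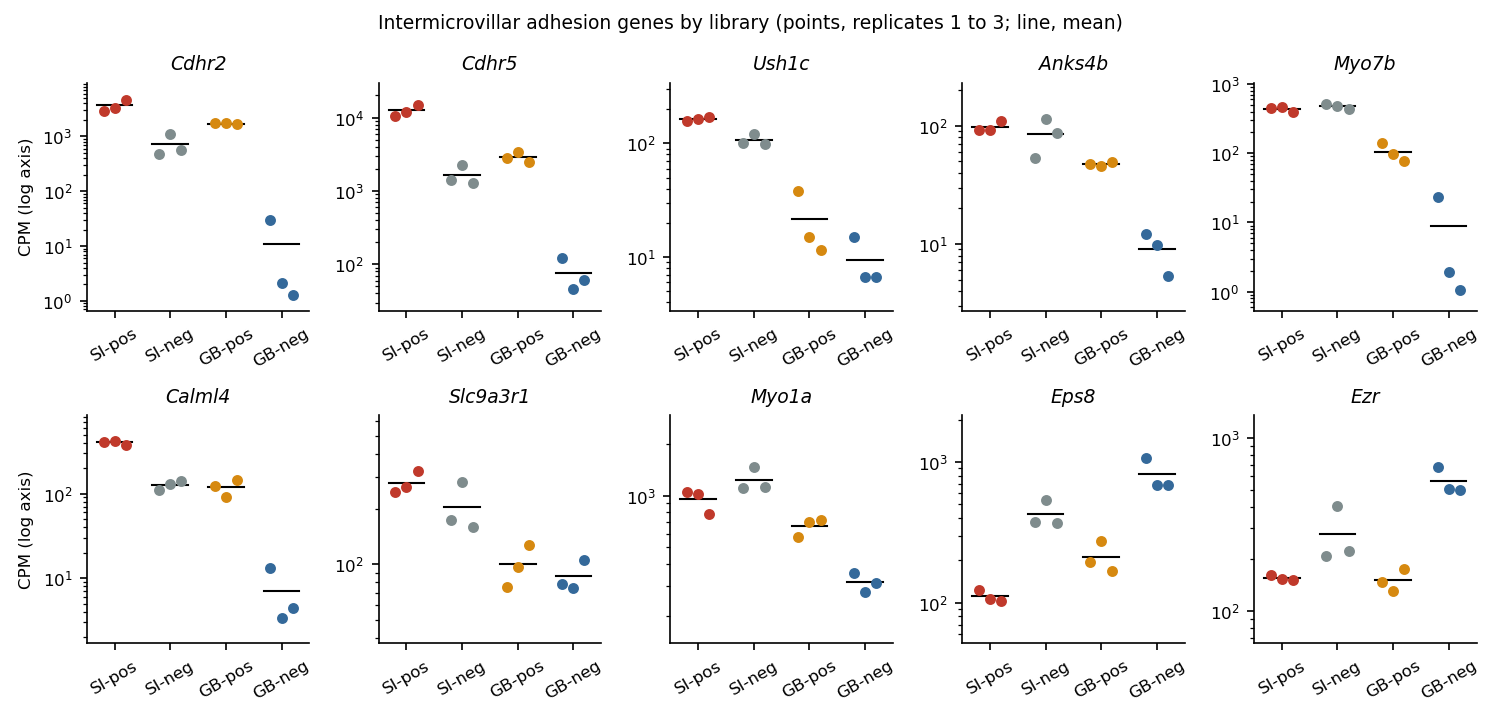
Level of Cdhr2, Cdhr5 and 8 partner genes of the intermicrovillar adhesion complex in each library (CPM, log axis); points are replicates 1 to 3 and lines are group means. Calml4 follows Cdhr5 in being higher in the IL-25+ group of each tissue, while Eps8 and Ezr are lower there.

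Ctnna1 and Ctnna3 encode αE-catenin and αT-catenin, the actin-linking catenins. αE-Catenin is the epithelial form and αT-catenin is best known from heart and testis. Ctnna1 (ENSMUSG00000037815, chromosome 18, 35118859 to 35254779) had 519, 586 and 566 CPM in SI-pos 1 to 3 and 302, 363 and 325 CPM in SI-neg 1 to 3. It had 309, 270 and 277 CPM in GB-pos 1 to 3 and 578, 443 and 334 CPM in GB-neg 1 to 3. The gates did not overlap in either tissue, and their order was opposite. Ctnna1 rose by 0.76 ± 0.19 in small intestine IL-25+ cells (adjusted p = 0.0108) and fell by -0.66 ± 0.19 in those of the gallbladder (adjusted p = 0.0212). The latter call was lost without GB-neg 1 (-0.47, adjusted p = 0.0927), without GB-pos 2 (0.0599), without GB-pos 3 (0.0581) and with the gallbladder libraries alone (0.077). The difference between the tissues, -1.42 ± 0.27 (adjusted p = 0.00526), passed in all 21 alternatives run for it. The strand setting of the counting is not given in the sources used here, and Lrrtm2, which lies on the other strand and shares 95 exonic bases with Ctnna1, had at most 614 counts in a library.

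Ctnna3 (ENSMUSG00000060843, chromosome 10, 63430098 to 65003667) showed the largest fitted difference between gates of the 9 genes. Its counts were 582, 814 and 1020 in the GB-pos libraries and 0 in each GB-neg library. The SI-pos libraries held 17, 55 and 143 counts and the SI-neg libraries 1, 4 and 0. Both IL-25+ groups therefore lay above both IL-25- groups, at 24.9 ± 7.03 CPM in GB-pos and 2.88 ± 2.64 CPM in SI-pos. In the gallbladder Ctnna3 was at least 1111-fold higher in IL-25+ cells, by a floor of 3 counts over the GB-neg group (fitted log2 fold change 12.74 ± 1.54, which depends on the prior count, adjusted p = 0.000129). In the small intestine it rose by 5.72 ± 1.11 (adjusted p = 0.00304), and leaving out 1 library moved this to 4.71 without SI-pos 3 and to 7.36 without SI-neg 2. Both calls held in all 22 alternatives. They carry the limit that Ctnna3 passed the filter on low counts only through IL-25+ libraries, in which it was high.

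Among IL-25+ cells Ctnna3 was 3.11 ± 0.90 higher in gallbladder than in small intestine (adjusted p = 0.0282). That call was lost without SI-pos 1 (adjusted p = 0.0733), SI-pos 2 (0.0978), GB-pos 2 (0.0776) or GB-pos 3 (0.0655), and without SI-pos 3 the difference was 4.13. Among IL-25- cells, with 0 and 5 counts, the difference of -3.91 did not pass (adjusted p = 0.117). Per kb, αT-catenin transcripts remained a minor part of the 2: they made up 7.27% ± 2.33 of the summed Ctnna1 and Ctnna3 level in GB-pos, 0.448% ± 0.408 in SI-pos and 0.0138% ± 0.0169 in SI-neg. With gene length taken from the longest transcript the GB-pos share was 8.20% ± 2.61. The profiles nearest to that of Ctnna3 were Gpr137b, which encodes a lysosomal membrane protein, Npnt, which encodes the matrix protein nephronectin, and Map2, which encodes a microtubule-associated protein (0.642, 0.810 and 0.817).

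**Figure D3:**
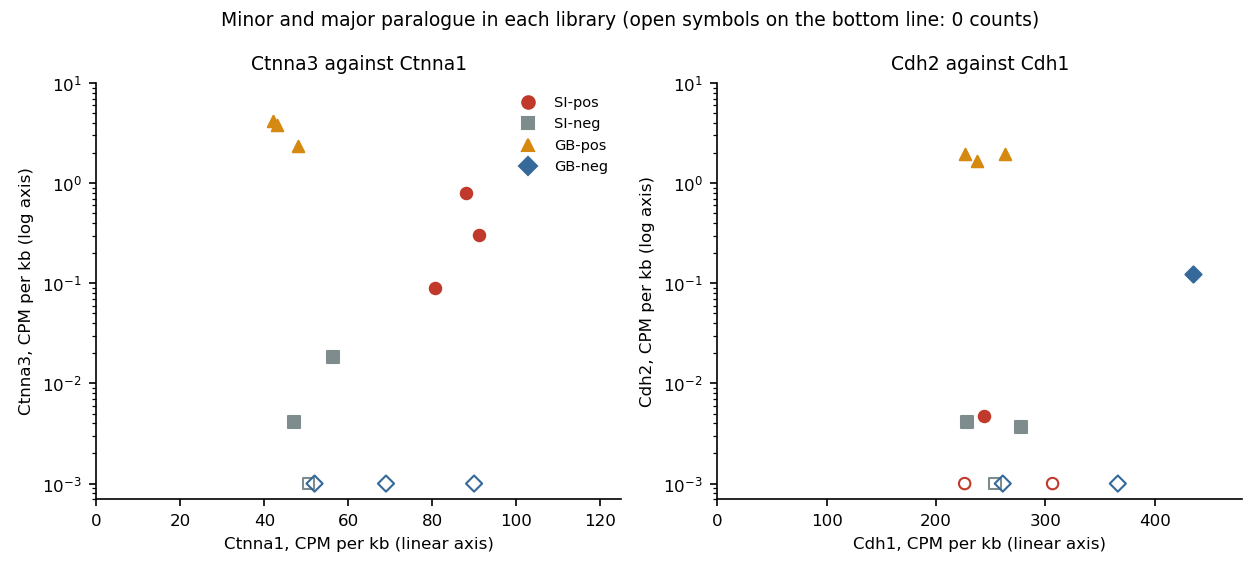
Ctnna3 against Ctnna1 and Cdh2 against Cdh1 in each library, in CPM per kb of merged exons (x linear, y log); each symbol is 1 library and open symbols on the bottom line mark 0 counts of the y gene. The GB-pos libraries stand highest on both y axes while their Ctnna1 and Cdh1 levels lie within or below the range of the other groups.

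Ctnna3 spans a large stretch of chromosome 10 and holds another gene, Lrrtm3, on the opposite strand within it, with no shared exonic base. Lrrtm3, a synaptic adhesion gene, had 3523, 3141 and 3009 counts in the GB-pos libraries and 4, 2 and 0 in the GB-neg libraries. Its log2 fold change in the gallbladder was 11.07 ± 1.16 (adjusted p = 2.51e-05) and in the small intestine 2.96 ± 0.83 (adjusted p = 0.0196). The 2 neighbours were thus both higher in IL-25+ cells, and whether reads of one were counted for the other was not tested. The 250 bases before the most upstream RefSeq start of Ctnna3, chr10:63429848-63430097 (plus strand, GRCm38.p6), are shown as the start region of the member with the widest gate difference. They hold no exact match to the 6 motifs, most of which are rare in windows of this length.

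Ctnna3: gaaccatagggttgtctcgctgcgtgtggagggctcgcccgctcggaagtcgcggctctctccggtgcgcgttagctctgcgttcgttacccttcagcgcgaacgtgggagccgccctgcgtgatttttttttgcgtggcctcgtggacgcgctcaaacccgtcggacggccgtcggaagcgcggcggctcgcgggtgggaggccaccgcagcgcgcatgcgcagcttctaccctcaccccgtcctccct

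Ctnnb1 (ENSMUSG00000006932, chromosome 9, 120929216 to 120960507) encodes β-catenin. It had 426, 372 and 403 CPM in SI-pos 1 to 3 and 401, 444 and 427 CPM in SI-neg 1 to 3, ranges that overlap. It had 338, 310 and 348 CPM in GB-pos 1 to 3 and 717, 732 and 624 CPM in GB-neg 1 to 3, ranges well apart. β-Catenin transcripts were therefore lower in IL-25+ than in IL-25- cells of the gallbladder, by -1.06 ± 0.15 (adjusted p = 0.000158), and did not differ detectably in the small intestine (-0.08, adjusted p = 0.721). Tissues differed in IL-25- cells, with GB-neg higher by 0.71 ± 0.14 (adjusted p = 0.0034), and not detectably in IL-25+ cells (-0.27, adjusted p = 0.194). The difference of the 2 gate effects was -0.98 ± 0.20 (adjusted p = 0.0091). The gallbladder gate call, the tissue call in IL-25- cells and this interaction each held in every alternative run for them. Ulk4, which overlaps Ctnnb1 by 759 exonic bases on the other strand, had 770 counts over all libraries.

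Ctnnd1 (ENSMUSG00000034101, chromosome 2, 84600071 to 84650765) encodes p120-catenin, which binds the cadherin tail near the membrane and holds cadherins at the cell surface. It had 222, 266 and 211 CPM in SI-pos 1 to 3, against 88.5, 103 and 74.6 CPM in SI-neg 1 to 3. It had 80.7, 72.2 and 83.6 CPM in GB-pos 1 to 3 and 95.6, 87.0 and 140 CPM in GB-neg 1 to 3. The SI-pos libraries stood above all others, and the remaining 3 groups lay close together. Ctnnd1 rose by 1.39 ± 0.21 in IL-25+ cells of the small intestine (adjusted p = 0.000345), while the gallbladder change of -0.45 did not pass (adjusted p = 0.131). It was lower in gallbladder than in small intestine IL-25+ cells by -1.56 ± 0.21 (adjusted p = 0.000201), with no call between the IL-25- groups (0.28, adjusted p = 0.372). The interaction was -1.84 ± 0.30 (adjusted p = 0.00183), and these 3 calls held in each alternative. Gm28635, a protein-coding gene on the same strand, shares 4482 exonic bases with Ctnnd1 and had 0 counts over all libraries. Whether reads from the shared bases were left uncounted was not tested, so the Ctnnd1 level per kb may be too low.

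**Figure D4:**
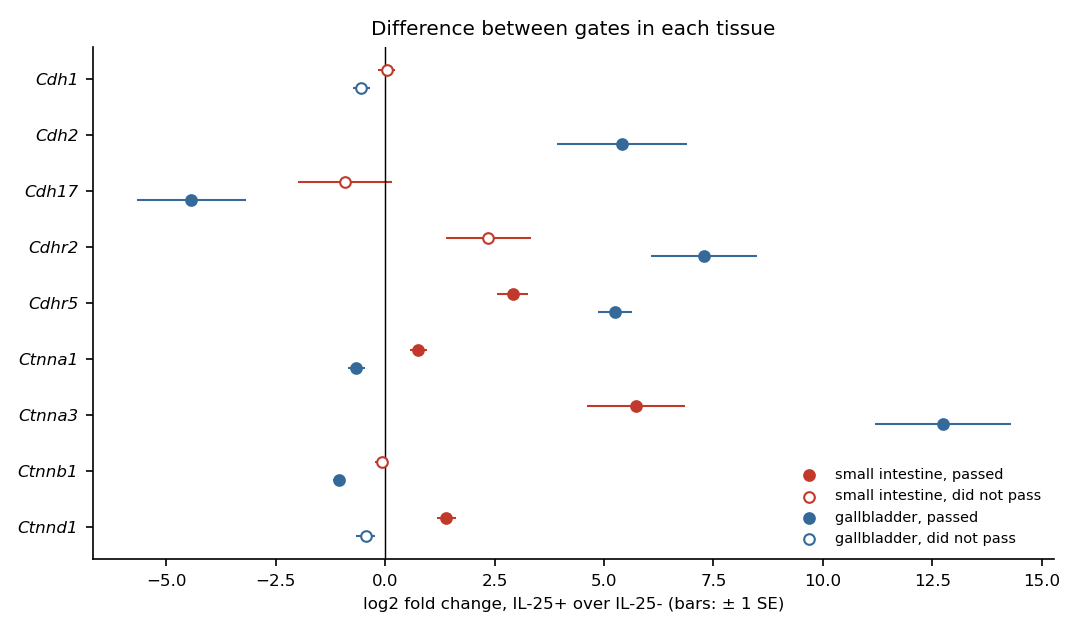
Log2 fold change of IL-25+ over IL-25- cells for each gene in the small intestine (red) and the gallbladder (blue), with bars of 1 SE; filled points passed the test at an adjusted p under 0.05. Cdh2 in the small intestine is not drawn because both groups had at most 3 counts; Ctnna1, Ctnnb1 and Ctnnd1 lie to the left in the gallbladder and Ctnna1 and Ctnnd1 to the right in the small intestine.

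Set against E-cadherin per kb, the junctional catenins were not in a fixed ratio. The Ctnnd1 level was 0.126 ± 0.0334 of that of Cdh1 in SI-pos and 0.0483 ± 0.0114, 0.0448 ± 0.00667 and 0.0453 ± 0.0243 in SI-neg, GB-pos and GB-neg. The Ctnna1 level was 0.341 ± 0.0584 of that of Cdh1 in SI-pos and 0.205 ± 0.0391, 0.184 ± 0.0224 and 0.198 ± 0.00934 in the same 3 groups. SI-pos was thus apart from the other groups in both ratios. The size of the Ctnnd1 ratios carries the limit of its overlap with Gm28635. For Ctnnb1 the ratios were 0.302 ± 0.0436 in SI-pos, 0.325 ± 0.048 in SI-neg, 0.265 ± 0.0352 in GB-pos and 0.388 ± 0.0715 in GB-neg, where GB-pos and GB-neg did not overlap.

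Ordered by CPM per kb, SI-pos read Cdhr5 (4550 ± 772), Cdhr2 (885 ± 221), Cdh17 (311 ± 28.1), Cdh1 (259 ± 42.3), Ctnna1 (86.7 ± 5.37), Ctnnb1 (77.2 ± 5.21) and Ctnnd1 (31.8 ± 3.99). In this order Cdh17 and Cdh1, and Ctnna1 and Ctnnb1, overlapped with their neighbour. In GB-neg the junctional genes came first, with Cdh1 at 354 ± 87.5, Ctnnb1 at 133 ± 11.2 and Ctnna1 at 70.3 ± 19.0, ahead of Cdhr5 at 28.1 ± 14.9. In SI-neg, Cdhr5 (604 ± 192) and Cdh17 (586 ± 106) led and overlapped, and their order was reversed with longest-transcript lengths (629 and 757). In GB-pos, Cdhr5 (1067 ± 169) and Cdhr2 (414 ± 14.0) were followed by Cdh1 (243 ± 19.1), and Cdh17 was last at 0.508 ± 0.156. With the longest transcript as length, Ctnna1 stood at 149 rather than 86.7 in SI-pos, and Ctnna3 at 0.783 rather than 0.399.

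The comparisons between tissues share their groups with those between gates, so they are given side by side and not as separate evidence. In IL-25+ cells 6 of 9 genes passed, beside 23.7% of all genes tested, and 5 of 8 without Cdh2, which passed the filter only through GB-pos: Cdh2 and Ctnna3 were higher in gallbladder, and Cdh17, Cdhr5, Ctnna1 and Ctnnd1 were lower, where 10.5% of all genes were higher and 13.1% lower. In IL-25- cells 4 of 9 passed, beside 24.6% of all genes: Ctnnb1 was higher in gallbladder, and Cdh17, Cdhr2 and Cdhr5 were lower, where 13% of all genes were higher and 11.7% lower. The libraries of the 2 tissues did not overlap for 8 of 9 genes in IL-25+ and 4 of 9 in IL-25- cells, beside 41.9 and 43.5% of all genes. The 8 include Cdh2, for which this is a description. The enterocyte list, to which Cdh17, Cdhr2 and Cdhr5 do not belong, was lower in gallbladder for 15 of 15 genes in both gates. The median log2 difference of the 9 genes was -0.97 in IL-25+ and 0.28 in IL-25- cells, beside -0.09 and -0.03 over all genes.

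Whether the gate difference itself depended on tissue was tested by the interaction, which is positive where the IL-25+ excess was larger in the gallbladder. It passed for 5 of 9 genes, beside 9.23% of all genes tested. Cdhr5 (2.33 ± 0.47, adjusted p = 0.00708) and Ctnna3 (7.02 ± 1.95, adjusted p = 0.0458) were positive, and Ctnna1, Ctnnb1 and Ctnnd1 were negative, beside 3.63% of all genes positive and 5.6% negative. The Ctnna3 call was lost in 14 of 21 alternatives, with adjusted p up to 0.235 without SI-neg 2. The size of the Ctnna3 interaction depends on the prior count, with 0 counts in GB-neg and 5 in SI-neg. For Cdhr2 the value of 4.92 ± 1.37 did not pass (adjusted p = 0.0536) but was 7.58 without GB-neg 1 (adjusted p = 3.7e-06). For Cdh2 the interaction was 5.91 (adjusted p = 0.244) and 12.37 without that library. Both Cdh2 values are a description, since the gene passed the filter on low counts only through GB-pos. Cdh1 (-0.58) and Cdh17 (-3.52, or -0.12 without GB-neg 1) did not pass.

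Genes that work with the 9 were read from 7 further lists. Beside their counts, 14.5% of all genes tested were higher and 12.8% lower in IL-25+ cells of the small intestine. In the gallbladder these shares were 12.4 and 14.4%, and the interaction was positive for 3.63% and negative for 5.6%. Of 29 adherens junction partners in the table, 10 were higher and 4 lower in IL-25+ cells of the small intestine, and 4 higher and 8 lower in those of the gallbladder, with medians of -0.02 and -0.34. Lima1, an actin-bundling partner of α-catenin, rose in both (2.03 ± 0.19 and 2.19 ± 0.19, adjusted p = 6.94e-06 and 3.93e-06). Nectin1, an immunoglobulin-type adhesion receptor of the same junctions, rose by 0.95 ± 0.22 and 3.43 ± 0.24, and the kinase Fer, which binds p120-catenin, by 1.28 ± 0.26 and 3.04 ± 0.27. For both genes the tissues differed, by 2.47 ± 0.31 for Nectin1 (adjusted p = 0.000314) and 1.76 ± 0.36 for Fer (adjusted p = 0.00836). The scaffold gene Tjp1 (ZO-1) fell by -0.73 ± 0.20 and -2.10 ± 0.20, the former lost without SI-pos 3, and the receptor phosphatase gene Ptprk fell by -2.20 ± 0.24 and -2.50 ± 0.24.

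Desmosomes use their own cadherins, plakoglobin, plakophilins and desmoplakin. Of 10 tested desmosome genes, 3 rose and 0 fell in the small intestine, and 3 rose and 2 fell in the gallbladder, with medians of 0.36 and 0.43. Dsp (desmoplakin) rose in both tissues (0.77 ± 0.17 and 1.22 ± 0.17), as did Pkp1 (plakophilin 1), from 33.2 ± 17.2 to 249 ± 45.4 CPM and from 1.12 ± 0.911 to 65.0 ± 15.1 CPM. The desmosomal cadherin Dsg2 rose in the small intestine (1.40 ± 0.18, adjusted p = 0.000106). In the gallbladder Pkp3 and Perp fell by -1.52 ± 0.29 and -0.83 ± 0.20 (adjusted p = 0.00179 and 0.00867). None of 7 genes of other catenins and of proteins named for catenins passed between gates in either tissue, at medians of 0.19 and 0.35.

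Of 18 tested β-catenin partners and Wnt targets, 2 rose and 4 fell in the small intestine, and 5 rose and 3 fell in the gallbladder, with medians of -0.55 and 0.33. The targets Myc, Ccnd1 and Cd44 fell in both tissues, Ccnd1 by -3.68 ± 0.57 and -3.60 ± 0.56. The targets Lgr5, Ascl2 and Nkd1 rose in the gallbladder. The interaction was positive for 5 of the 18 genes, those 3 with Rnf43 and Bcl9l, and negative for none, beside 3.63 and 5.6% of all genes tested. Lgr5 stood at only 0.698 ± 1.13 CPM in GB-neg, and its tissue difference in IL-25- cells was -6.33, or -10.23 without GB-neg 1. The gate calls of Lgr5, Ascl2 and Nkd1 without that library are not given here. Sox9, a transcription factor of progenitor and tuft cells, rose in both, from 146 ± 86.4 to 1000 ± 140 CPM and from 111 ± 24.5 to 1186 ± 249 CPM. Of 9 destruction complex genes 2 rose and 1 fell in the small intestine and 1 fell in the gallbladder, the casein kinase gene Csnk1a1 (-0.64 ± 0.17, adjusted p = 0.0123). The gene that fell in the small intestine was Axin2, itself a Wnt target, at 165 ± 94.7 CPM in SI-neg and 11.3 ± 1.44 CPM in SI-pos (-3.87 ± 1.00, adjusted p = 0.0166); 4 of 22 alternatives did not make that call. The proliferation list was also lower in SI-pos, for 4 of 8 genes, and in GB-pos, for 2 of 8, and its part in the Wnt target values was not tested.

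A list of 9 genes held proteases that cut cadherins and subunits of γ-secretase. Of these, 4 rose, 1 fell and 4 did not pass in the small intestine, and 2 fell and 7 did not pass in the gallbladder, with medians of 0.75 and -0.29. The interaction was negative for Adam10, Adam15, Adam17 and Ncstn and did not pass for the other 5. Those that fell in the gallbladder were the sheddases Adam10 (-1.16 ± 0.20, adjusted p = 0.000911) and Adam17 (-1.005 ± 0.23, adjusted p = 0.00595). The γ-secretase subunits Ncstn and Psen2 rose in the small intestine by 1.10 ± 0.17 and 1.42 ± 0.34, and Mmp7, a matrix protease of Paneth cells, fell (-5.20 ± 1.13, adjusted p = 0.00722). The Paneth list fell alongside, for 3 of 6 genes, one of which is Mmp7 itself. Of 7 transcriptional repressors of Cdh1 (the Snai, Zeb and Twist genes), 2 had enough counts to be tested and neither passed in any comparison.

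**Figure D5:**
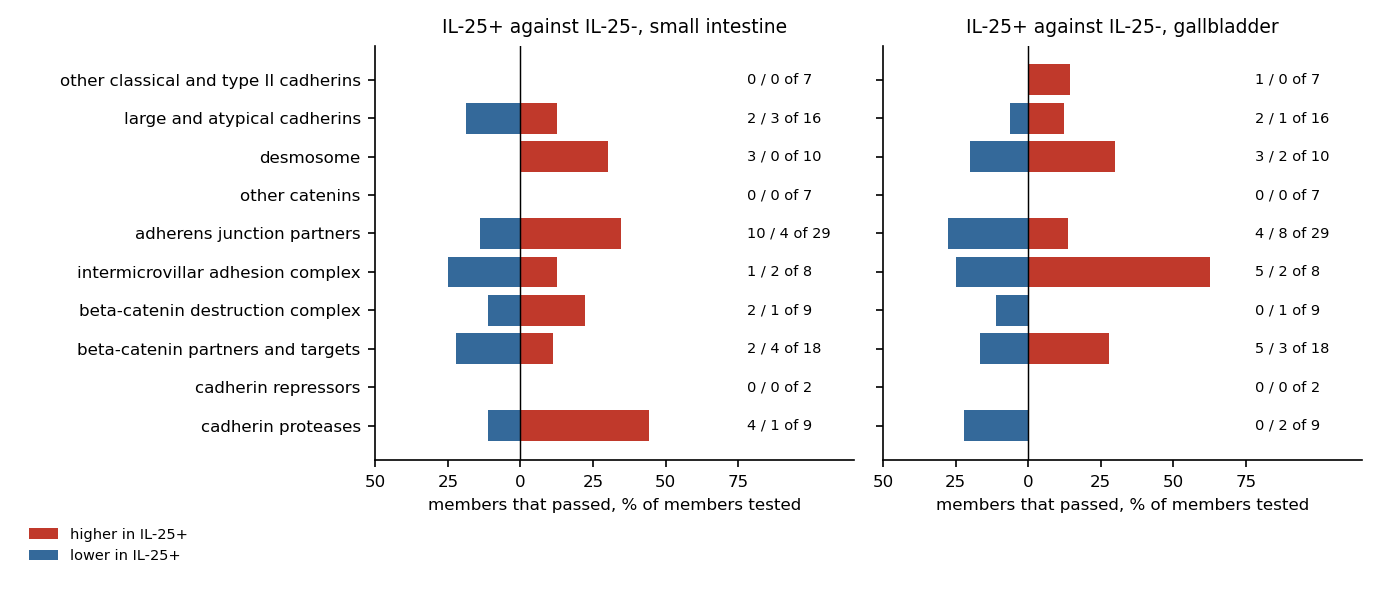
Share of the tested members of 10 partner lists that were higher (red, right) or lower (blue, left) in IL-25+ than in IL-25- cells in each tissue, in percent; the numbers give genes higher / lower of genes tested. The intermicrovillar list has 5 of 8 higher in the gallbladder and 1 of 8 in the small intestine, and the other catenins have none in either tissue.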

How the data were processed

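Bulk RNA sequencing libraries of sorted EpCAM+ cells were read from 1 gene table of the series, in which the values are raw counts per gene deposited by the authors. Per the submitters' processing notes, reads were aligned with STAR 2.7.2b to GRCm38 and DESeq2 1.26 was used; the read counter, its strand setting and the annotation release are not given in the sources used here. Of the table's per-sample columns, 11 matched no sample of the series and were not used. Gene symbols came from GENCODE M21, which matched 42548 of 43432 identifiers.

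Differences were fitted with edgeR 4.0.16 (quasi-likelihood, robust, R 4.3.3) on the deposited counts of all 12 libraries with group as the only term, TMM scaling and edgeR's expression filter at a minimum count of 10. The SE is the size of the log2 fold change divided by the square root of F. P-values were adjusted by Benjamini-Hochberg over the 16636 genes tested, at a threshold of 0.05. Levels per kb divide CPM by merged exon length, and a floor of 3 counts bounds folds against groups at 0; at these depths 3 counts equal 0.0463 to 0.127 CPM. Alternatives were RLE scaling, DESeq2 1.42.0, limma-voom (limma 3.58.1), other filters, a replicate block, the compared groups alone, leaving out each library, and leaving out mitochondrially encoded genes. The fitting scripts were tested on simulated counts. Matplotlib 3.10.9 drew the figures from tables built in Python 3.11.15 with scipy 1.17.1, numpy 2.4.6 and pandas 2.3.3.

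All 9 members are described. The rule for other genes took, from each partner list, up to 3 with the lowest adjusted p in each gate and tissue comparison and any called against its list's majority direction; for Cdh2, Cdh17, Ctnna3 and Cdhr5, the 3 genes of at least 10 CPM with the nearest profile; and genes that overlap a member. Not all genes this rule took are printed. Values outside it (Anks4b, Myo1a, Myo7b, Ush1c, Tek, Nectin1, Fer and Ccnd1 in the small intestine, Cdh6 and Cdh13 between gates, Cdh3 between tissues, Lgr5, Ascl2 and Nkd1, Tjp1 and Ptprk in the gallbladder, the interactions of partner genes) were chosen after they were seen. The members and all lists were chosen with earlier results of these data known. Replicates of a group differed by more than sampling noise (the lowest chi-square per degree of freedom was 45.3), and none was merged.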

Additional observations from a re-analysis of the deposited data

Results flagged for a closer look

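In 5 of the 9 genes the difference between IL-25+ and IL-25- cells was not the same in the gallbladder and the small intestine, by the interaction term of the edgeR fit at an adjusted p under 0.05. Of all genes tested, 9.23% passed the same test, 3.63% positive and 5.6% negative. The difference between gates was larger in the gallbladder for the microvillar receptor Cdhr5, by 2.33 on the log2 scale, and for αT-catenin (Ctnna3), by 7.02. The interaction was negative for the junctional catenin genes, whose IL-25+ level relative to IL-25- cells was lower in the gallbladder than in the small intestine: it was -1.42 for Ctnna1, -0.98 for Ctnnb1 and -1.84 for Ctnnd1. Between gates, in the small intestine and the gallbladder in turn, Ctnna1 differed by 0.76 and -0.66, Ctnnb1 by -0.08 (not passing) and -1.06, and Ctnnd1 by 1.39 and -0.45 (not passing). The Ctnna3 value is the one that 14 of 21 alternatives did not call. Its size depends on the prior count, since GB-neg held 0 counts, and ran from 4.99 to 8.07 over all settings.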

How the results depend on the processing

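Of the member results over all settings, 893 kept their direction and side of the threshold, 31 lost a call, 31 gained one and 13 changed sign. Changes of sign were Cdh1 between gates in the small intestine, at -0.091 with RLE scaling, -0.091 with DESeq2, -0.018 with limma-voom, -0.012 without mitochondrially encoded genes and -0.11 to 0.12 over fits that left out 1 library (below 0 without SI-pos 3 or SI-neg 2); Cdh2 in the same comparison with limma-voom (0.13); Cdh1 between tissues in IL-25+ cells (0.025 with RLE, 0.025 with DESeq2, 0.033 with those groups alone, and -0.18 to 0.047 leaving out 1 library, above 0 without SI-pos 3); and Cdh2 between tissues in IL-25- cells leaving out 1 library (-2.56 to 4.48, below 0 without GB-neg 1) or without GB-neg 1 and SI-neg 3 (-3.09). The cause was not tested. Genes called between gates in the small intestine numbered 6832 with limma-voom against 4529, and interaction genes 2364 with DESeq2 against 1536. RLE moved the median gene by -0.12, 0.11 and 0.16 in the small intestine gate, IL-25+ tissue and interaction comparisons.

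Leaving out 1 library at a time gave 4 to 6 members called in the small intestine, 5 to 8 in the gallbladder, 5 to 7 and 4 to 6 between tissues (IL-25+, IL-25-) and 4 to 6 for the interaction; of all genes, 3040 to 4774, 3525 to 4469, 2740 to 4157, 3042 to 4233 and 1050 to 1566. Deviations of same-numbered libraries from their group means had correlations of 0.026, -0.002 and -0.028 in small intestine and 0.094, 0.019 and 0.162 in gallbladder. Those of different-numbered libraries ran from -0.062 to 0.062 and from -0.179 to 0.096. With 3 libraries a group, these values cannot settle whether the numbers pair libraries. With a replicate block, members called were 4, 6, 6, 4 and 4 and genes called 4254, 4074, 3540, 3796 and 1340; the block lost Cdh17 in the gallbladder (-3.56, adjusted p = 0.119; -2.28, 0.267 with the block nested in tissue) and the Ctnna3 interaction (0.0536; 0.106 nested). DESeq2 gave no adjusted p for Cdh2 and Cdh17 in some comparisons, and these have no value there. Low counts limit Cdh2 and Ctnna3 outside GB-pos.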

Other observations

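Other cadherins than the 9 described above also differed between the tissues. Of all genes tested, 10.5% were higher in gallbladder than in small intestine in IL-25+ cells and 13% in IL-25- cells, with 13.1 and 11.7% lower. Among 7 tested classical and type II cadherins, 4 were higher in gallbladder than in small intestine in IL-25+ cells and 3 in IL-25- cells, and none was lower. Cdh3, Cdh6 and Cdh13 passed the filter on low counts only through gallbladder libraries, so their tissue differences, and their part in these counts, are a description. The 4 included Cdh3 (edgeR adjusted p = 0.0413, with 0 counts in each SI-pos library), a call that 10 of 20 alternatives did not make. Its GB-pos level rested on 1 library: GB-pos 3 held 187 Cdh3 counts, GB-pos 1 held 4 and GB-pos 2 none. Cdh6, a type II cadherin known from kidney and biliary development, stood at 33.8 ± 2.81 CPM in GB-pos and 0.0666 ± 0.0849 CPM in SI-pos (8.92 ± 0.81, n = 3 libraries a group). In IL-25- cells Cdh6 stood at 20.9 ± 4.71 CPM in GB-neg and 0.210 ± 0.132 CPM in SI-neg (6.61 ± 0.70). Cdh13, which is anchored to the membrane by a lipid, was higher by 8.52 ± 0.95 and 7.02 ± 0.83. Neither Cdh6 nor Cdh13 passed between gates in the gallbladder (0.69 and -0.64). Cdh4 was higher by 5.53 ± 0.64 in IL-25+ and 2.20 ± 0.57 in IL-25- cells, and its gate difference was larger in the gallbladder by 3.33 ± 0.79 (edgeR adjusted p = 0.0178).

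Of 16 tested large and atypical cadherins, 2 rose and 3 fell in IL-25+ cells of the small intestine and 2 rose and 1 fell in those of the gallbladder. Over all genes tested, 14.5% rose and 12.8% fell in the small intestine, and 12.4% rose and 14.4% fell in the gallbladder. The protocadherin gene Pcdh20 stood at 465 ± 148 CPM in GB-pos and 0.638 ± 0.776 CPM in GB-neg (9.37 ± 1.51, edgeR adjusted p = 0.00142, and 11.04 without GB-neg 1). In the small intestine it rose by 4.33 ± 1.3 (edgeR adjusted p = 0.0293), a call that 8 of 22 alternatives did not make.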
